A study of Mus musculus with 6 samples.

Results

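The genes described here are the nuclear genes of oxidative phosphorylation, the set of mitochondrial protein complexes that carry electrons to oxygen and make ATP. They were taken by gene symbol and by detection in the matrix: the Nduf genes of complex I, the Sdh genes of complex II, the Uqcr genes of complex III, the numbered Cox subunit genes of complex IV and the Atp5 genes of complex V. Of 31054 features, 81 matched, and 79 were kept because they had a count in at least 100 barcodes. The rule left out Cox7b2, seen in 5 barcodes, and a second identifier of Atp5o, seen in 1. The 79 genes divide into 37 of complex I, 4 of complex II, 8 of complex III, 14 of complex IV and 16 of complex V, and lie on 19 chromosomes. By symbol Ndufa4 falls in complex I, although its product is known as a complex IV subunit, and Atp5s and Cox7a2l are not core subunits.

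The series set out to characterise the precursors of osteoclasts in mouse embryos by droplet-based 3′ single-cell RNA sequencing (10x Genomics), with 6 labelled samples in 3 groups of 2. One group held Cx3cr1CreER; R26tdTomato embryos whose mothers received 4-hydroxytamoxifen at E9.5. Another held Csf1r-Mer-iCre-Mer; Csf1r-EGFP; R26tdTomato embryos whose mothers received it at E8.5. From both kinds of embryo, cells of the macrophage and monocyte lineage were isolated from the whole body at E14.5. The remaining group, without the drug, was the total bone marrow of 2-month-old wildtype C57BL/6 mice. The drug switches on Cre in cells that use the Cx3cr1 or Csf1r promoter, which leaves tdTomato in those cells and their progeny. The 39048 barcodes came in 1 matrix with library numbers 1 to 4. No sample label carries those numbers, so no barcode was assigned to a sample, and all of them together count as 1 sample here. By marker genes, every library held tissue macrophages (1698 to 3244), microglia (66 to 167) and Kupffer cells (69 to 100). No test between groups of samples was possible. The summed levels carry exact 95% Poisson intervals, which cover counting error only, and the main values are given by library. Other values are pooled over the libraries, with no interval.

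Complexes I and II pass electrons from NADH and succinate to ubiquinone, complex III hands them to cytochrome c, and complex IV passes them to oxygen, while complex V uses the proton gradient so built to make ATP. Most subunits are encoded in the nucleus and a small core by mitochondrial DNA. Osteoclasts are large, multinucleate bone-resorbing cells of the macrophage lineage, known for abundant mitochondria and for the proton pump that acidifies the bone surface.

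Osteoclasts were taken as barcodes with at least 3 UMIs (unique molecular identifiers, the counted mRNA molecules) of each of Ctsk, the collagen-cutting protease cathepsin K, and Acp5, tartrate-resistant acid phosphatase. There were 66 such barcodes, 14, 9, 16 and 27 in libraries 1 to 4, of 34587 that passed the cell filter. The 10225 tissue macrophages had at least 3 UMIs of each of Mrc1, Pf4 and Csf1r, and 11 further cell types were gated in the same way by their own markers. The label of the osteoclasts was also set beside markers that did not choose them. Mmp9, a matrix metalloprotease of osteoclasts, was at 2180.4 CPM (counts per 1000000 UMIs) in osteoclasts and 5.94 CPM in tissue macrophages, Dcstamp, needed for their fusion, at 199 and 0.204 CPM, and the proton pump subunit Atp6v0d2 at 613 and 2.68 CPM. Of 12 measured osteoclast effector genes outside the gate, 10 were at least 1.5-fold higher in osteoclasts, beside 14.7% of all measured genes. Ostm1 (26.9 and 19.9 CPM) and Clcn7 (22.7 and 12.2 CPM) were not. Of the higher genes, Mmp9, Atp6v0d2, Dcstamp, Ocstamp, Mmp14, Src and Itgb3 were under 10 CPM in tissue macrophages. They were measured only through their osteoclast level, so the count is no support for the label. Nfatc1 (313 and 15.7 CPM), Car2 (408 and 14.1 CPM) and Tcirg1 (216 and 50.6 CPM) passed 10 CPM in both classes. Itgb3 was higher but at only 11.6 CPM in osteoclasts, and Calcr, too low to be compared, had 1 UMI there. All 8 measured macrophage markers outside the gates were at least 1.5-fold lower, beside 17.9% of all measured genes. The 9 listed markers of this kind summed to 712 CPM in osteoclasts, 169.6 to 2268 CPM by library, against 12817 CPM in tissue macrophages, 12459 to 13446 CPM by library. Cd163, another macrophage marker, had no UMI in osteoclasts.

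Library totals ran between 106500620 and 198754246 UMIs, and 761 barcode sequences occurred in more than 1 library, 4 of the osteoclasts among them. Osteoclasts were deeper than tissue macrophages, with medians of 26774 and 14549 UMIs per barcode. No doublet caller was run. Barcodes that met several gates, 1430 in all, were set aside, except that 7 of the 66 osteoclasts also met another gate and were kept.

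The nuclear oxidative phosphorylation genes were higher in osteoclasts than in any other gated cell type. Together the 79 genes made up 59383 CPM in osteoclasts (interval 59036 to 59731) and 29759 CPM in tissue macrophages (29733 to 29786), a ratio of 2.00. In libraries 1 to 4 the osteoclast sums were 56283, 53984, 61716 and 61520 CPM, against tissue macrophage sums of 29426, 29099, 30267 and 30447 CPM. The groups did not overlap, and library 2, with the fewest osteoclasts, was the lowest in both. The difference was 0.996 on the log2(CPM + 10) scale, 0.89 to 1.03 by library, where the median over all measured genes was 0.00. This scale is used for all log2 differences here and understates those of genes with few counts.

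Next to osteoclasts came hepatocytes at 40480 CPM (38231 to 42596 by library), mast cells and basophils at 38532 CPM, erythroid cells at 37606 CPM and granulocyte-monocyte progenitors at 37225 CPM. The highest hepatocyte value is that of library 2, from 2 barcodes. The lowest osteoclast library lay above it, while the library ranges of hepatocytes, mast cells and erythroid cells overlapped. Monocytes stood at 33099 CPM, Kupffer cells, the macrophages of the liver, at 32325 CPM, mesenchymal cells at 29703 CPM and microglia, the macrophages of the brain, at 25373 CPM. Neutrophils were lowest at 14912 CPM. With totals that leave out ribosomal, mitochondrial and osteoclast effector genes, osteoclasts stayed first at 84213 CPM, but erythroid cells at 54495 CPM and mast cells and basophils at 54467 CPM came before hepatocytes at 53424 CPM. The 36 hepatocytes are few, and B-lineage cells came from libraries 3 and 4 only.

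**Figure D1:**
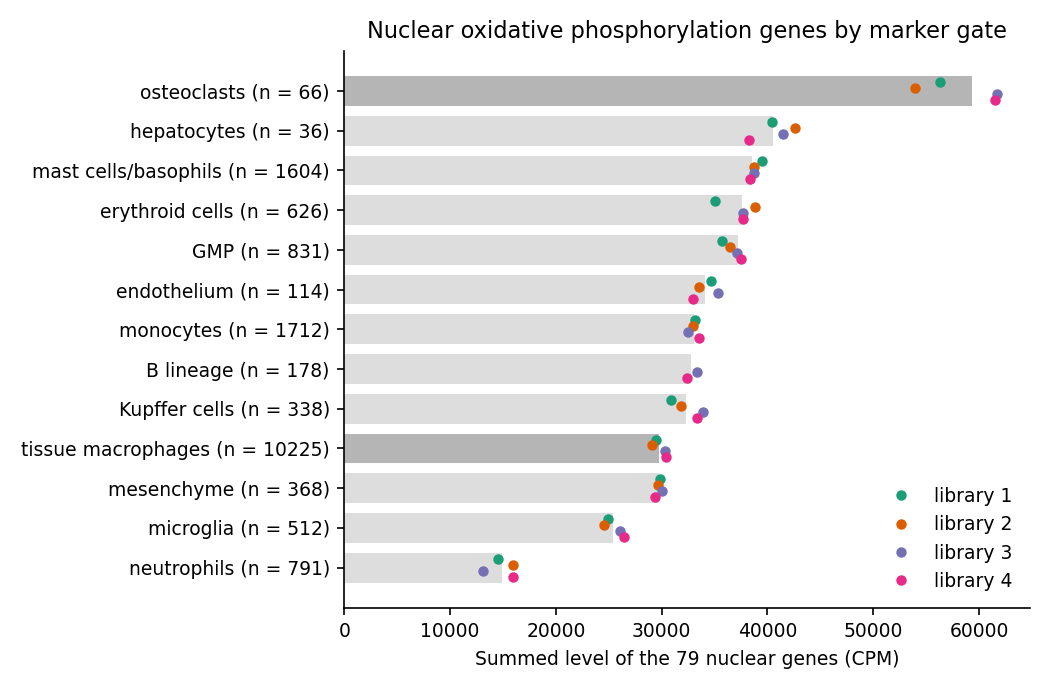
Summed level of the 79 nuclear genes in CPM (x axis) by marker gate (y axis, with the number of barcodes); bars are the pooled value and points the 4 libraries. Osteoclasts are at 59383 CPM with a lowest library of 53984 CPM, and no library of another gate passes 42596 CPM.

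Osteoclasts were also above tissue macrophages in single cells. The 79 genes took a median of 5.88% of an osteoclast's UMIs and 2.89% of a tissue macrophage's. Of 66 osteoclasts, 64 lay above the 95th percentile of tissue macrophages (3.59%) and 60 above the 99th (3.92%). The single-cell values overlapped, from 2.63% to 9.75% in osteoclasts and from 0.944% to 4.64% in tissue macrophages.

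Among genes with at least 10 CPM in either class, 66 of 75 members were at least 1.5-fold higher in osteoclasts on that scale, beside 14.7% of all 7972 such genes, and 35 were at least 2-fold higher, beside 5.93%. No member was 1.5-fold lower, beside 17.9%. In 74 of the 75, Ndufv3 being the exception, each osteoclast library was above each tissue macrophage library, which was so for 22.8% of all genes. All 4 unmeasured members, Cox6a2, Cox6b2, Ndufa4l2 and Atp5s, were under 10 CPM in both classes. Osteoclasts had the highest level of all 13 gates for 66 of the 75 members, and by at least 1.5-fold over the next gate for 12. For these counts the share over all genes is not given, so they cannot be set against a background. Many of the members have processed pseudogenes elsewhere in the genome, and the sources used here do not give how reads shared with them were counted.

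**Figure D2:**
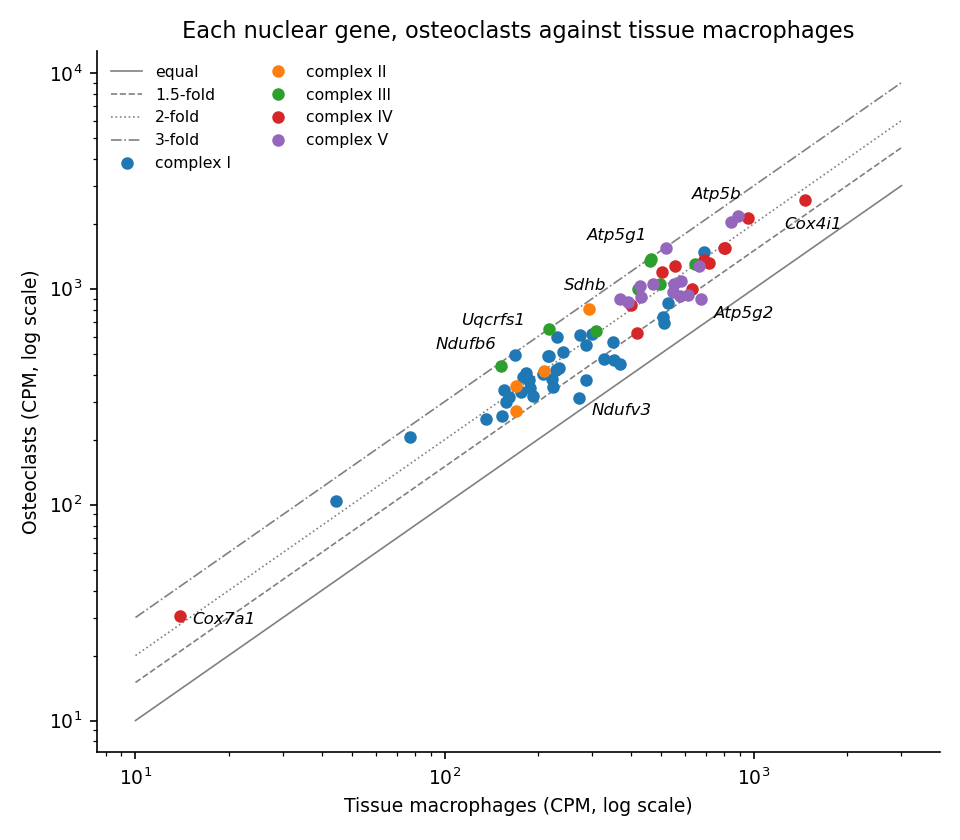
Level of each of the 75 measured genes in osteoclasts (y axis) against tissue macrophages (x axis), in CPM on log axes, coloured by complex; grey lines mark equal levels and 1.5-, 2- and 3-fold. All genes lie above the line of equality and 35 on or above the 2-fold line, on the log2(CPM + 10) scale.

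The complexes differed in size of the difference, in the order III, II, V, IV and I. Complex III was at 7795 CPM in osteoclasts and 3162 CPM in tissue macrophages (log2 1.30, 1.14 to 1.34 by library). Complex II was at 1851 and 842 CPM (1.13, 1.003 to 1.23), complex V at 17638 and 8561 CPM (1.04, 0.95 to 1.05), complex IV at 15429 and 7958 CPM (0.95, 0.88 to 0.98) and complex I at 16670 and 9237 CPM (0.85, 0.74 to 0.92). The library ranges of neighbours in this order overlapped. Within libraries 2 to 4 the order was the same, while in library 1 complex V (1.02) lay just above complex II (1.003). In each of the 4 libraries complex III was first, complex I last and complex IV next to last. Osteoclasts ranked first of the 13 gates for each complex. At least 1.5-fold higher were 8 of 8 measured genes of complex III, 4 of 4 of complex II and 14 of 15 of complex V. So were 11 of 12 of complex IV and 29 of 36 of complex I. Over all measured genes the share was 14.7%.

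**Figure D3:**
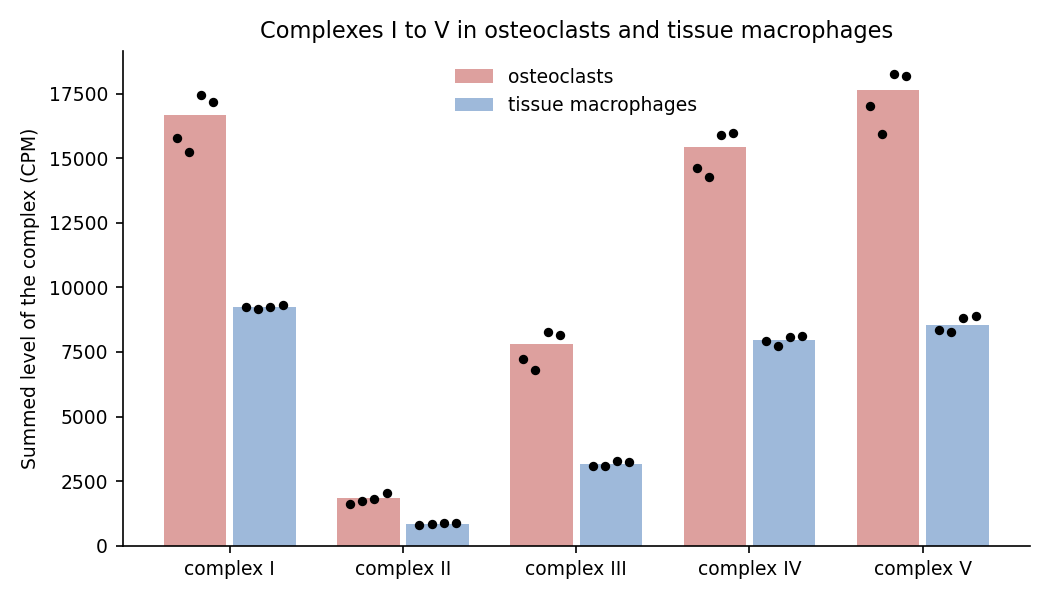
Summed level of each complex in CPM (y axis) in osteoclasts (left, red) and tissue macrophages (right, blue); bars are pooled values and points the 4 libraries in order. No osteoclast library falls within the tissue macrophage libraries of the same complex.

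Complex I, the NADH dehydrogenase, held both large and small differences. Ndufb6, a subunit of its membrane arm, had 441, 502, 475 and 527 CPM in the osteoclast libraries, against 165, 159.9, 175 and 178 CPM in the tissue macrophage libraries (log2 1.49, 2.92-fold). The groups were far apart in every library, and the next gate, the progenitors, reached 261 CPM. Ndufb10, also of the membrane arm, was at 597 and 231 CPM (1.33), and Ndufv1, the subunit that binds NADH and FMN, at 206 and 77.2 CPM (1.31). At the other end stood Ndufv3, an accessory subunit beside Ndufv1, with 260.0, 317, 365 and 306 CPM in osteoclasts and 271, 266, 269 and 284 CPM in tissue macrophages (0.18). Here the groups overlapped, library 1 of the osteoclasts lying below its tissue macrophages. Ndufa7, an accessory subunit, was at 447 and 369.6 CPM (0.27), the next smallest. Ndufa6, Ndufa7, Ndufb11, Ndufa2, Ndufs6 and Ndufv3 were higher in hepatocytes than in osteoclasts, Ndufa6 by the most, at 429 CPM in osteoclasts and 732 CPM in hepatocytes.

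Complex II, succinate dehydrogenase, also works in the TCA cycle. Sdhb, its iron-sulphur subunit, had 719.7, 727, 793 and 891 CPM in osteoclasts, against 286, 294, 297 and 294 CPM in tissue macrophages (log2 1.44, 2.77-fold). The groups were far apart, and mast cells and basophils, the next gate, were at 427 CPM. Sdha, the flavin-carrying catalytic subunit, was at 354 and 170.0 CPM (1.02), and the membrane anchors Sdhd at 416 and 209.9 CPM (0.95) and Sdhc at 272 and 169.7 CPM (0.65). For each of the 4 genes all osteoclast libraries lay above all tissue macrophage libraries, which was so for 22.8% of all measured genes.

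Complex III, the cytochrome bc1 complex, was the one in which each of the 8 genes was at least 2-fold higher, beside 5.93% of all measured genes. Against tissue macrophages matched on UMIs, 6 of the 8 were, beside 4.67%. Uqcr11, a small subunit, had 1249, 1244.5, 1552 and 1385 CPM in osteoclasts, against 469, 468, 461 and 454 CPM in tissue macrophages (log2 1.55, 2.96-fold). Uqcrfs1, the Rieske iron-sulphur protein that takes electrons from ubiquinol, had 613, 550.0, 644 and 700.0 CPM in osteoclasts, against 218, 218, 217 and 217 CPM in tissue macrophages (1.53, 2.98-fold). Both genes were even across the tissue macrophage libraries, and every osteoclast library was more than 2-fold above them. Uqcr10, another small subunit, was at 1346 and 459.6 CPM (1.53), and the core protein Uqcrc2 at 436 and 152 CPM (1.47). The smallest differences were those of the core protein Uqcrc1, at 639 and 308 CPM (1.03), and of Uqcrb, at 1304.5 and 645 CPM (1.005). Uqcrq alone was higher in another gate, at 994 CPM in osteoclasts and 1054 CPM in hepatocytes. The symbol rule does not take Cyc1, cytochrome c1 of the same complex, which was at 779 and 202 CPM (1.90).

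In complex IV, cytochrome c oxidase, Cox7a2 was at 1191 CPM in osteoclasts and 504.3 CPM in tissue macrophages (log2 1.22), Cox5b at 1275 and 554 CPM (1.19) and Cox8a at 2118 and 954 CPM (1.14), all 3 small subunits around the catalytic core. Cox6a1 (1002 and 631 CPM, 0.66) and Cox7a2l (622 and 418 CPM, 0.56) differed least. Cox7a2l is known for joining complexes into supercomplexes. Cox5a was highest in Kupffer cells, at 1359 CPM in osteoclasts and 1415 CPM in Kupffer cells, with overlapping library ranges (1154 to 1635 and 1375 to 1582 CPM).

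Several subunits of complex IV have tissue isoforms. Cox4i1, the main isoform of subunit 4, was the most abundant member, with 2465.5, 2340.5, 2528 and 2730.4 CPM in osteoclasts, against 1425, 1421, 1509 and 1512 CPM in tissue macrophages (log2 0.81). Cox6b1 was at 1546 and 805 CPM (0.93), and Cox6b2, known from testis, had 18 UMIs in osteoclasts, 9.50 CPM there and 9.57 CPM in tissue macrophages. Erythroid cells had 183 CPM of Cox6b2, the highest of the gates. Cox6a2, the heart and muscle isoform, had 2 UMIs in osteoclasts (1.06 CPM, under the 1.58 CPM that 3 counts give) and 3.49 CPM in tissue macrophages, and its highest gate was the B lineage with 296 CPM. Cox7a1, the muscle and heart isoform of subunit 7a, had more, with 18.6, 20.1, 42.3 and 34.2 CPM in osteoclasts, against 14.9, 15.7, 12.1 and 12.3 CPM in tissue macrophages (0.76). The groups did not overlap, but the osteoclast value rests on 58 UMIs, and hepatocytes with 26 UMIs were level with it at 29.7 CPM. Ndufa4 was at 1473 and 689 CPM (1.08), while its paralogue Ndufa4l2, known as hypoxia-induced, had no UMI in osteoclasts, which by the limit of 3 counts allows up to 1.58 CPM, and 0.500 CPM in tissue macrophages. Its highest gate was endothelium at 23.2 CPM.

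In complex V, the ATP synthase, the catalytic subunit gene Atp5b had 1978, 2023, 2060.3 and 2382 CPM in osteoclasts, against 815, 859.5, 959 and 951 CPM in tissue macrophages (log2 1.28, 2.45-fold). Every osteoclast library was more than 2-fold above its tissue macrophages. Atp5l, subunit g of the membrane part, was at 2039 and 846 CPM (1.26) and stood 1.98-fold above the next gate, mast cells and basophils at 1030.2 CPM, the widest such margin of the 75 genes. The smallest differences were those of Atp5e, the epsilon subunit of the catalytic head, at 931 and 612 CPM (0.60), and of Atp5g2. Atp5f1, subunit b of the stalk, was at 1049 CPM in osteoclasts and 553 CPM in tissue macrophages, and at 1623 CPM in mast cells and basophils. Atp5s had 7 UMIs in osteoclasts (3.69 CPM, against 8.05 CPM in tissue macrophages).

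The 3 genes of subunit c, the rotor ring of the ATP synthase, encode the same mature protein with different import sequences, and they differed among themselves. Atp5g1 had 1639, 1445, 1668 and 1444 CPM in osteoclasts, against 533, 498, 530.3 and 523 CPM in tissue macrophages (log2 1.55, 2.95-fold). Atp5g3 had 859, 703, 1018 and 905 CPM in osteoclasts, against 364, 333, 411 and 384 CPM in tissue macrophages (1.25, 2.42-fold). Atp5g2 had 963, 875, 863 and 886 CPM in osteoclasts, against 696, 663, 654 and 677 CPM in tissue macrophages (0.40, 1.33-fold). In tissue macrophages Atp5g2 gave the most counts of these genes in every library, and in osteoclasts Atp5g1 did. Levels of different genes depend on where each transcript is primed, so that only the differences between cell types are comparable.

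The promoters of the subunit c genes and of a pair of other members are printed because they hold, or lack, the motifs known for this group of genes. Each runs from 250 bases before the annotated start to 30 after it, on the minus strand of GRCm38.p6, in RefSeq's sequence. Capitals mark matches, on either strand, to TGCGCA (a core of the sites of nuclear respiratory factor NRF1), CCGGAAG (ETS factors such as NRF2), GATGGCG (a core of YY1 sites) or AAGGTCA (a half-site of estrogen-related receptors, ERR). Atp5g1 lies at chr11:96075602-96075881, Atp5g3 at chr2:73911297-73911576, Atp5g2 at chr15:102671018-102671297, Uqcr11 at chr10:80406792-80407071 and Sdhd at chr9:50603820-50604099.
Atp5g1: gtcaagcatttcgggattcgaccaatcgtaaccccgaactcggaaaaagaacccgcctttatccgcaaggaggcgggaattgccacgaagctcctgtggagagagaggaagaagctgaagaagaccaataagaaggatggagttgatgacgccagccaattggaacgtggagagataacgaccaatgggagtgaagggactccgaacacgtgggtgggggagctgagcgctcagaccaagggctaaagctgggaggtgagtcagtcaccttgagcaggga
Atp5g3: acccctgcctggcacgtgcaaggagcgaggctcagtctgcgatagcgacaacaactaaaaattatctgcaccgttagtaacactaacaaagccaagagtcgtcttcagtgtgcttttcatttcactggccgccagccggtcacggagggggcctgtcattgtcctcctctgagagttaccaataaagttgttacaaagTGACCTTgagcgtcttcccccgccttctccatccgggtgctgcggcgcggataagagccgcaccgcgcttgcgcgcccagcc
Atp5g2: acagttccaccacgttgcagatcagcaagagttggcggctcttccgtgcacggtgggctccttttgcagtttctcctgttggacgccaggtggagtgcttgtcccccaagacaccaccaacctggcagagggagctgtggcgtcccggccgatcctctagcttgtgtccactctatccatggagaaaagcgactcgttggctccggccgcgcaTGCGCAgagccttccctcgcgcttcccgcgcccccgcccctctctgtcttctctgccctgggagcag
Uqcr11: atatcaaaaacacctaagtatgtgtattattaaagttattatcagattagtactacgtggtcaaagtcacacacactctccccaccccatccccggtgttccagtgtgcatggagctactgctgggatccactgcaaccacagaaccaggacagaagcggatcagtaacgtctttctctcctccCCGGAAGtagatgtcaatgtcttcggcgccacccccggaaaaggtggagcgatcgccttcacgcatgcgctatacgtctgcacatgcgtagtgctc
Sdhd: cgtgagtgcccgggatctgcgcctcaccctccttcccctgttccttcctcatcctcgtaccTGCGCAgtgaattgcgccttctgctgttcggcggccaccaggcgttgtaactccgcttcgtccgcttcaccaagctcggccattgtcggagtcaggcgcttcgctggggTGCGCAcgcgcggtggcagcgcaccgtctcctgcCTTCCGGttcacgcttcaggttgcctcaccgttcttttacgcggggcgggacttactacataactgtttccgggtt
Atp5g1 has no match, Atp5g3 has an ERR match, Atp5g2 an NRF1 match and Uqcr11 an ETS match. Sdhd has a pair of NRF1 matches and an ETS match, with an ERR match in the bases after those printed.

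Of the 79 members, 66 had a promoter of 300 bases in the table. NRF1 matches stood in 18 of them (27.3%), beside 8.79% of 27025 genes with a promoter and 18.1% of the 6354 such genes measured here. ETS matches stood in 16 (24.2%), beside 9.93% of all genes and 24.2% of measured ones. YY1 matches stood in 9 (13.6%), beside 4.04% and 8.69%, and ERR matches in 8 (12.1%), beside 5.38% and 3.84%. The median log2 difference of measured members was 0.94 for 18 with an NRF1 match and 0.96 for 46 without. It was 0.94 for 16 with an ETS match and 0.96 for 48 without. For YY1 it was 0.82 for 9 with a match and 1.02 for 55 without, and for ERR 1.04 for 8 with and 0.94 for 56 without. The ranges of members with and without a match overlapped for each motif. A match describes the letters and does not show a bound site.

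For the 13 subunits encoded by mitochondrial DNA the difference was smaller and the libraries overlapped. Their sum was 28929 CPM in osteoclasts, 23156 to 33957 CPM by library, against 26652 CPM in tissue macrophages, 26060 to 27086 CPM by library (ratio 1.09). The ratio of nuclear to mitochondrially encoded counts was 2.05 in osteoclasts and 1.12 in tissue macrophages. In the other gates it ran from 0.721 in hepatocytes to 2.00 in erythroid cells, close to that of osteoclasts. The most abundant of these genes were close between the classes: mt-Atp6, of the proton channel of complex V, at 5812 and 5765 CPM, mt-Co3 at 5158 and 5599.9 CPM and mt-Co1, the catalytic subunit of complex IV, at 4012 and 3913 CPM. At least 1.5-fold higher were 3 of 13 (23.1%, beside 14.7% of all genes), mt-Nd5 (348 and 146 CPM), mt-Nd4l (120.3 and 60.7 CPM) and mt-Atp8 (66.0 and 40.4 CPM). Barcodes with over 10% mitochondrial UMIs had been removed, which bounds this sum.

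Genes that feed the chain were higher as well. The list for the TCA cycle held 16 genes, among them Pdha1, Pdhb and Dlat of pyruvate dehydrogenase, which feeds the cycle. Of the 16, 15 were at least 1.5-fold higher in osteoclasts (beside 14.7% of all genes) and none lower (beside 17.9%). Their median log2 difference was 1.07. Mdh2, mitochondrial malate dehydrogenase, had 1170.1, 1088, 1110.1 and 1251 CPM in osteoclasts, against 272, 280.2, 305 and 298 CPM in tissue macrophages (2.00, 4.11-fold), a gap of the same kind in every library. Idh3g, of isocitrate dehydrogenase, was at 280.2 and 139.9 CPM.

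Of 18 electron carriers and mitochondrial transporters 12 were at least 1.5-fold higher (66.7%, beside 14.7% of all genes) and 1 lower (5.56%, beside 17.9%). Their median was 0.86. Cycs, cytochrome c, which shuttles electrons from complex III to IV, had 1302, 1024, 1056 and 1210 CPM in osteoclasts, against 284, 269, 293 and 284 CPM in tissue macrophages (2.02, 4.16-fold). Beyond Cycs and Cyc1, the ADP/ATP carriers Slc25a4 (951 and 354 CPM) and Slc25a5 (2196 and 1138 CPM), the phosphate carrier Slc25a3 (1043 and 565 CPM) and the outer membrane channels Vdac1 (374 and 204 CPM) and Vdac2 (596 and 273 CPM) were higher. So were the ubiquinone synthesis genes Coq3 (28.5 and 12.55 CPM), Coq5 (78.6 and 36.4 CPM), Coq7 (140.4 and 51.2 CPM) and Coq9 (65.4 and 31.0 CPM), and Etfa, of the electron transfer flavoprotein (192 and 119 CPM). Coq10b, a ubiquinone-binding protein, was the lower one, at 14.8 CPM in osteoclasts from 28 UMIs and 27.4 CPM in tissue macrophages.

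Of 13 measured genes listed as regulators of mitochondrial biogenesis 3 were at least 1.5-fold higher (23.1%, beside 14.7% of all genes) and none lower (beside 17.9%). Their median of 0.43 was 0.20 against tissue macrophages matched on UMIs. Ppargc1b, the coactivator PGC-1β, had 53.4, 72.3, 42.3 and 55.7 CPM in osteoclasts, against 5.52, 5.26, 6.44 and 5.52 CPM in tissue macrophages, 9.68-fold as a ratio of CPM from 103 osteoclast UMIs. Under 10 CPM in tissue macrophages, Ppargc1b was measured only through its osteoclast level. Its relative Ppargc1a had no UMI in osteoclasts, with the same limit of 1.58 CPM, and 0.154 CPM in tissue macrophages. Tfrc, on the list but encoding the transferrin receptor that brings in iron, was at 66.0 and 16.2 CPM. Esrra, the estrogen-related receptor α, was at 47.0 and 19.3 CPM. For both, each osteoclast library was above each tissue macrophage library, which was so for 22.8% of all genes.

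**Figure D4:**
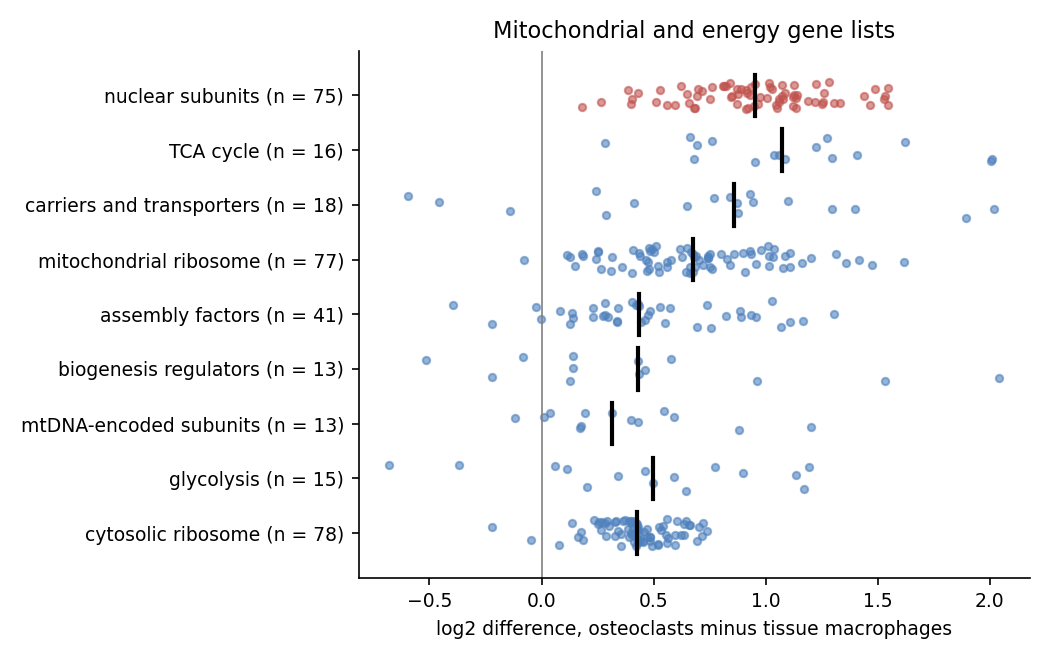
Log2 difference of each measured gene, osteoclasts minus tissue macrophages (x axis), by gene list (y axis, with the number of genes measured); black bars are list medians. The nuclear subunits have a median of 0.95 and the mitochondrially encoded ones 0.31.

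The remaining lists are read against all measured genes, of which 14.7% were at least 1.5-fold higher and 17.9% lower. Assembly factors of the complexes were at least 1.5-fold higher for 13 of 41 (31.7%) and lower for none (median 0.43), with Uqcc2 at 368 and 188 CPM, Cox14 at 289 and 213 CPM and Coa3 at 243 and 172 CPM. Mitochondrial ribosomal proteins were higher for 46 of 77 (59.7%) and lower for none (0.67), with Mrpl52 at 489.7 and 177 CPM, Mrpl12 at 468 and 162 CPM and Mrpl42 at 353 and 233 CPM. Glycolysis genes were higher for 7 of 15 (46.7%) and lower for 1 (0.50, and 0.23 when matched on UMIs), with Gapdh at 2479 and 1796 CPM, Aldoa at 1648 and 727 CPM and Ldha at 1237 and 817 CPM. Cytosolic ribosomal proteins were higher for 14 of 78 (17.9%, near the share of all genes) and lower for none (0.43), with Rpl41 at 7806 and 5779 CPM, Rps19 at 6379 and 4444 CPM and Rpl13 at 6108 and 4608 CPM. The proton pump of lysosomes and the bone-facing membrane, the V-ATPase, was higher for 10 of 14 (71.4%) and lower for 2. Its median was 1.10, above the 0.95 of the nuclear subunits. Atp6v0e was at 1222 and 397 CPM, Atp6v0b at 1117 and 569 CPM and Atp6v1g1 at 959.9 and 579 CPM. Atp6v0d2, among the higher genes, was under 10 CPM in tissue macrophages and so was measured only through its osteoclast level.

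Depth moved with the result. Over 8 classes of tissue macrophages from shallow to deep, the 79 genes made up between 25967 CPM in the shallowest and 32149 CPM in the deepest. Against 567 tissue macrophages matched to the osteoclasts by library and UMIs (median 26769 UMIs), the sums were 59383 and 32228 CPM, a log2 difference of 0.88 (64 of 76 measured members at least 1.5-fold higher, beside 11.8% of all genes). In that matching 22 members, not 35, passed 2-fold, beside 4.67% of all genes. Matching also on the share of cell cycle genes gave 31532 CPM in 551 tissue macrophages and a difference of 0.91. Of 12 S phase genes 3 were at least 1.5-fold lower in osteoclasts (17.9% of all genes were) and 1 was higher, with a median of −0.37. Of 12 G2/M genes 3 were higher (14.7% of all genes were) and none lower, with a median of 0.44.

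**Figure D5:**
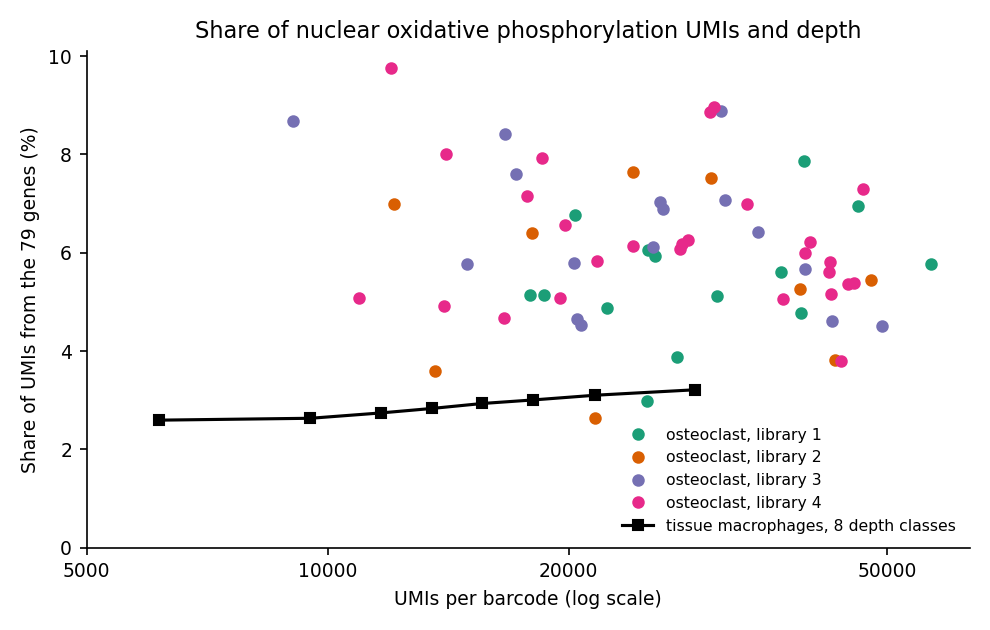
Share of UMIs from the 79 genes in percent (y axis) against UMIs per barcode on a log scale (x axis); coloured points are the 66 osteoclasts by library, black squares the pooled share of tissue macrophages in 8 depth classes. Nearly all osteoclasts sit above the squares, which go from 25967 CPM (2.60%) to 32149 CPM (3.21%).

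Markers of other cells were also present in the osteoclast barcodes. The 10 mesenchymal and bone matrix markers summed to 247 CPM in osteoclasts, 21.5 to 970 CPM by library with library 1 highest, against 133 CPM in tissue macrophages, 85.8 to 194 CPM, while Bglap, Ibsp, Sp7 and Alpl had no UMI in osteoclasts. The 8 erythroid markers summed to 1513 and 2722 CPM, with libraries at 458 to 2822 CPM in osteoclasts and 1709 to 4345 CPM in tissue macrophages. Hepatocyte markers summed to 16.4 and 106 CPM, and neutrophil markers to 112 and 141 CPM. The part of these cells' RNA in the result was not tested. Without library 1 the log2 difference of the 79 genes was 1.01, and without the 7 osteoclasts that met another gate it was 1.04.

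The level of the 79 genes did not climb evenly with the osteoclast genes. In barcodes with Csf1r, which encodes the receptor for the macrophage growth factor, the sum was 31031 CPM at 0 UMIs of Ctsk plus Acp5, 32157 CPM at 1 to 2, 32401 CPM at 3 to 5, 33023 CPM at 6 to 19 and 46839 CPM at 20 or more. The last class held 124 barcodes, 63 of them in the osteoclast gate. A split of it chosen after these values were seen gave 60224 CPM for the 63 in the gate and 35385 CPM for the 61 outside it. Those outside had 791 CPM of Acp5 but 5.59 CPM of Ctsk, and 390 CPM of Cd5l, a marker of Kupffer cells. With the gate lowered to 1 UMI of each gene, 270 barcodes entered, the log2 difference was 0.45, 16 members passed 1.5-fold and none 2-fold. The share of all genes past these folds is not given for that gate.

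Over the other pairs of gates the members' counts were read against those of all genes. At least 1.5-fold higher in osteoclasts were 69 of 75 measured members against microglia (19.3% of all genes), 63 of 76 against Kupffer cells (17.3%) and 59 of 76 against monocytes (17.9%). The counts were 46 of 76 against granulocyte-monocyte progenitors (17.3%), 47 of 76 against mast cells and basophils (17.6%), 44 of 77 against erythroid cells (28.0%) and 39 of 77 against hepatocytes (32.9%). These comparisons share the same osteoclasts.

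Over the 13 gates the genes whose level was most like that of the summed members, by Pearson correlation of log2(CPM + 10) among 5632 candidates, were 2010107E04Rik and Minos1 (r = 0.98 each) and Idh3b, Cycs and Zfp106 (r = 0.95 each). Without osteoclasts the values over 12 gates were 0.98, 0.97, 0.92, 0.92 and 0.92 in the same order. The gates share libraries and a common total, so the correlation is a description.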

How the data were processed

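The values deposited by the authors are raw UMI counts in a matrix of 39048 barcodes and 31054 features. Its software version is Cell Ranger 3.0.1, per the file headers; Cell Ranger 2.1.1 with mm10 is listed in the submitters' processing notes. The labels' protocols give a 10x 3′ kit, version 1. Libraries held 127153052, 106500620, 129007371 and 198754246 counts. A barcode was kept with at least 1000 UMIs, at least 500 genes and at most 10% mitochondrial UMIs, which 34587 met and 4461 did not.

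Cells were gated on UMIs of marker genes (13 gates). Counts were summed per gate and library and divided by all UMIs to give CPM, and differences were taken as log2(CPM + 10). Genes under 10 CPM in both classes were not compared. With 1 pooled sample there is no test and no p-value, and the planned comparisons between labelled groups were not run. The alternatives were another pseudocount, member filter, cell filter, gate, total and macrophage class, and leaving out each library. The genes, gates and lists were chosen with earlier results of these data known. Named genes were, per complex, the 3 largest and 2 smallest differences among members with at least 50 CPM (all 4 of complex II), the tissue isoforms, every regulator and electron carrier past 1.5-fold, and the 3 most abundant genes of each other list. The values of 1 gene that this rule names are not reported here. Uqcrc2, Ndufa6, Ndufb11, Ndufa2, Ndufs6, Uqcrq, Cox5a and Atp5f1, the markers named and the promoter motifs were added after values were seen.

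Counts were simulated for 2782 genes with at least 50 CPM in tissue macrophages, 50 of them changed by each fold. Genes under 50 CPM were not simulated. At the depths of osteoclasts and tissue macrophages, all genes changed 1.5-fold or 2-fold upward came back within 0.25 log2 units. So did 98% of those changed 1.5-fold downward. The simulated counts carried Poisson error only. Python 3.11.15, numpy 2.4.6, scipy 1.17.1, pandas 2.3.3 and matplotlib 3.10.9 were used.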

Additional observations from a re-analysis of the deposited data

Results flagged for a closer look

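For 78 sets of 4 library values, 39 for each of the classes compared, the gap of the highest or lowest library to the nearest other was divided by the range, and 2 sets passed Dixon's 95% critical value. Chance alone flags about 1 set in 20. Sdha in tissue macrophages was at 159.91 CPM in library 1, against 174.32, 173.57 and 175.34 CPM in libraries 2 to 4. Cox6a2 in osteoclasts was at 2.53 CPM in library 4, from 2 UMIs, and at 0 in the others.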

How the results depend on the processing

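No paired analysis was possible because the library numbers of the barcodes match no labelled sample, so the labelled groups could not be set against each other; osteoclasts minus tissue macrophages within libraries 1 to 4 were at 0.935, 0.891, 1.03 and 1.02. The log2 difference of all members kept its direction under every alternative (main 0.996, 0.45 to 1.14), as did those of complexes I to V and the list medians. With at least 1 UMI of Ctsk and Acp5 it was 0.45 (complexes I to V 0.36, 0.44, 0.61, 0.41 and 0.51; 16 members past 1.5-fold, 0 past 2-fold), and the cause was not tested. With at least 10 UMIs (58 barcodes) complex IV was at 1.01 and V at 1.09. With totals that leave out ribosomal, mitochondrial and osteoclast effector genes log2 ratios of CPM moved up by 0.15, and by less for genes near the added 10 CPM, so all members were at 1.14 and complexes I to V at 0.999, 1.28, 1.45, 1.10 and 1.19, and 50 members, not 35, passed 2-fold. Matched on UMIs, complexes III, IV and V were at 1.18, 0.85 and 0.88, all members at 0.88, 22 members past 2-fold, and list medians were 0.73 (carriers), 0.91 (TCA cycle), 0.20 (regulators), 0.23 (glycolysis), 0.52 (mitochondrial ribosome) and 0.29 (cytosolic ribosome). Matched also on cell cycle, complexes IV and V were at 0.88 and 0.92 and all members at 0.91. Regulators with at least 50 CPM had a median of 1.53, but Ppargc1b and Tfrc passed that filter only through their osteoclast level. Leaving out each library gave 0.97 to 1.01 for all members, 0.82 to 0.87, 1.04 to 1.15, 1.27 to 1.31, 0.93 to 0.97 and 1.03 to 1.05 for complexes I to V, 65 to 67 members past 1.5-fold and 30 to 35 past 2-fold. Of these alternatives, the share of all genes past the same folds is given for matching on UMIs only.

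Single genes changed sign near 0. At the 1-UMI gate Ndufv3 was at −0.015, Cox6a2 at 0.058 and Ndufa4l2 at 0.12. Cox6b2 (main −0.005, 18 UMIs) was at 0.93 there, 0.088 at the 10-UMI gate, 0.077 with reduced totals, 0.016 with the stricter cell filter, 0.006 without barcodes of several gates, and −0.138 to 0.060 leaving out a library. The 66 osteoclasts held 1895022 UMIs, which limits genes under about 10 CPM.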
